A study of Mus musculus with 6 samples.

Results

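The lysosome genes described here encode the proton pump, the hydrolases and the membrane proteins of the lysosome. They are a list of 48 genes, chosen by name in classes of 15 subunits and accessory proteins of the proton pump, 10 cathepsins and related proteases, 13 further hydrolases and their activators (named after the glycosidases and lipases that make up most of them), and 10 membrane and associated proteins. Of the 48, 46 had a probe set with 1 gene symbol equal to the name, and these are 46 of 22180 genes measured. Atp6v0c and Limp2 had none. Limp2 is an alias of Scarb2, which is given among the other lysosome genes. RNA came from primary lung fibroblasts of male wild-type C57BL/6 mice aged 8 weeks, enriched from digested lungs and passaged at most 3 times. Cells in 3 wells were given vehicle and cells in 3 others purmorphamine, each for 24 h, with 1 Affymetrix array per well. The labels write the dose as 5um, read here as 5 µM. Purmorphamine activates Smoothened, the protein that passes Hedgehog signals into the cell, and the comparison asks which transcripts changed with it. The labels do not say how many mice or pools the wells came from, so p-values rest on differences among wells alone, and these may be technical.

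Lysosomes degrade material delivered by endocytosis, phagocytosis and autophagy. The vacuolar ATPase (V-ATPase) acidifies them: its cytosolic V1 sector hydrolyses ATP and its membrane sector, V0, carries protons into the lumen. Cathepsins cut proteins at that acid pH, glycosidases and lipases take apart sugar chains and lipids, and membrane proteins export the products or release calcium. Fibroblasts use cathepsins to degrade collagen they have taken up, and macrophages are rich in lysosomes.

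Values are log2 signals after RMA, the normalization named in the submitters' processing notes, in which an increase of 1 is a doubling. Array medians lay between 6.34 and 6.39 and upper quartiles between 8.20 and 8.24, and 45 of the 46 lysosome genes lay above the upper quartile on every array. The exception was Atp6v1f, with a vehicle mean of 6.64. Although the cells are labelled fibroblasts, all 14 macrophage markers measured lay above the upper quartile on every array, against 11 of 14 fibroblast markers. Of 6 endothelial markers 4 did so. Vehicle means of the fibroblast markers ran from 6.01 for Lum to 13.72 for Vim, with a median of 10.37 and Col1a1 at 12.77. Those of the macrophage markers ran from 10.07 to 13.96, with a median of 11.66. Of 8 epithelial markers, Scgb1a1 lay at 4.24 and Sftpc at 6.40 in vehicle, while Krt18 lay at 10.61 and Cdh1 at 10.15. The changes below are therefore those of whole cultures, and fewer cells of a type and less RNA per cell cannot be told apart.

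With purmorphamine, 9 of the 46 lysosome genes rose and 5 fell, all by less than 1.7-fold. The rises were those of the V1 subunit genes Atp6v1a, Atp6v1c1, Atp6v1d and Atp6v1g1, of the collagen-degrading cathepsin gene Ctsk, of the hydrolase genes Gla and Gaa, and of the membrane protein genes Npc1 and Mcoln1. The falls were those of the protease genes Ctsc and Lgmn and of the glycosidase genes Manba, Man2b1 and Gusb. Genes were called at an adjusted p under 0.05 in a limma fit of all genes with Benjamini-Hochberg adjustment. The 14 calls are 30.4% of the lysosome genes, against 14.3% of all genes. However, calls were commoner among bright genes: of the 7002 genes above the upper quartile on every array, 27.4% were called. The share of lysosome genes called lay near that of these bright genes. The bright genes were not matched further in signal, and the median vehicle mean of the lysosome genes was 11.51. Rises made up 19.6% of the lysosome genes, against 7.18% of all genes and 13.8% of the bright ones, and falls 10.9%, against 7.16% and 13.6%. The median difference of the lysosome genes was 0.06 on the log2 scale, against -0.01 over all genes. The purmorphamine arrays lay all above the vehicle arrays in 24 lysosome genes, all below them in 10 and overlapped them in 12, and over all genes each of these complete orders was seen in 17.1%. This complete separation in 73.9% of the lysosome genes compares with 34.2% of all genes and 59.6% of the bright ones.

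**Figure D1:**
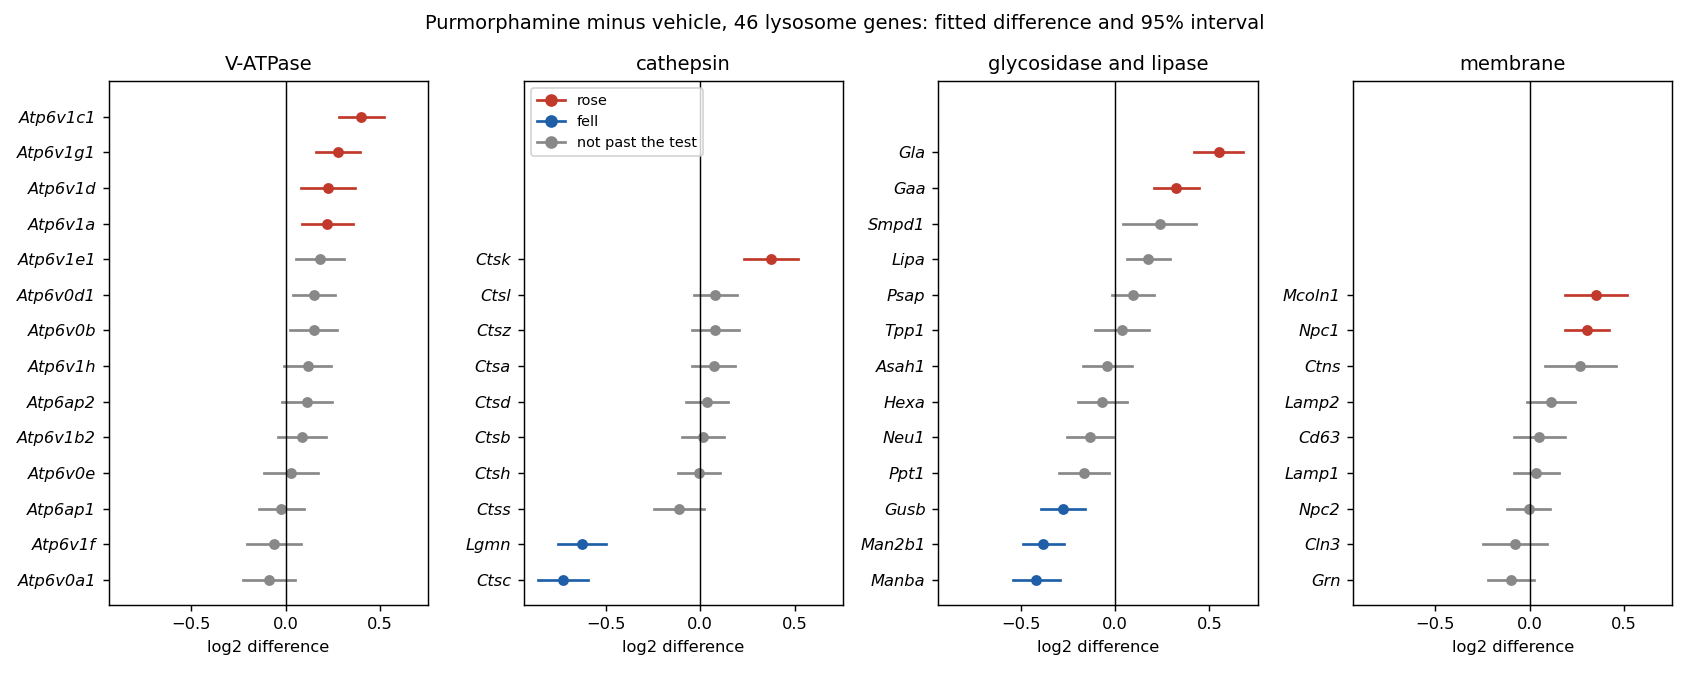
Fitted difference of purmorphamine minus vehicle (horizontal axis, log2 units) of the 46 lysosome genes in their 4 classes, with bars for the 95% interval and colours for genes that rose, fell or did not pass the test. The 5 falls lie in the cathepsin class and in the glycosidase and lipase class, and the rises are spread over all 4 classes.

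All 32 lysosome genes that did not pass the test had 95% intervals that stayed within a 1.5-fold change in either direction, which is 0.585 on the log2 scale. The same held for 18183 of the 18999 genes that did not pass over all genes, so it is no particular trait of lysosome genes. The widest bounds among the 32 lysosome genes were -0.30, for Ppt1, and 0.46, for Ctns. Their differences ran from -0.17 to 0.27. Changes of 1.5-fold or more were seen in Ctsc and Lgmn and in no other lysosome gene, and 2.37% of all genes were called with such a change.

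Many lysosome genes carry a short element with the letters CACGTG (an E-box) near their start, and GTCACGTGAC is the longer consensus form to which TFEB, a regulator of lysosome genes, is known to bind. RefSeq promoter windows of assembly GRCm38.p6, from 250 bases before to 50 after an annotated start, were at hand for 39 of the 48 listed genes. CACGTG, which reads the same on both strands, stood in the windows of 13 of these 39 genes (33.3%), against 8.09% of 27025 genes with a window. The longer GTCACGTG, which contains it and was searched on both strands, stood in 9 (23.1%), against 2.55%, and GTCACGTGAC stood in 1, Cln3, against 0.37%. Among genes with a window, CACGTG stood in 4 of 6 that rose, 1 of 5 that fell and 8 of 27 that did not pass. Atp6v1c1, Atp6v1g1 and Npc1 also rose but had no window, and a link between CACGTG and the outcome was not tested. The stretches shown are those of the 4 genes that rose and held CACGTG, and of Lgmn, which fell. Lamp1, which did not pass although it held 4 copies, is also shown. All stretches lie upstream of the start of their own window, run 5′ to 3′ along the gene's strand, and have each CACGTG in capitals. Lgmn also has another annotated start, whose window held no CACGTG, and the stretch shown lies downstream of that start.
Gla (chrX:134601182-134601244, minus strand): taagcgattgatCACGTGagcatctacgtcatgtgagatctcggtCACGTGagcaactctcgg
Mcoln1 (chr8:3500436-3500491, plus strand): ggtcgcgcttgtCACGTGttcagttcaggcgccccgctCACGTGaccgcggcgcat
Atp6v1a (chr16:44139373-44139402, minus strand): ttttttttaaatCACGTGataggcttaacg
Gaa (chr11:119267811-119267840, plus strand): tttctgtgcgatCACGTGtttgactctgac
Lgmn (chr12:102439124-102439153, minus strand): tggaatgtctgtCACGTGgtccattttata
Lamp1 (chr8:13159088-13159160, plus strand): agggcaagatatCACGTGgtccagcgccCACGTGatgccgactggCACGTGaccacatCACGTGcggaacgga
Gla and Mcoln1 each held 2 copies, and Atp6v1a, Gaa and Lgmn 1 each. These matches are letters in a window and describe no binding, and the arrays do not measure it.

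Of the 14 proton pump genes measured, 4 rose and 0 fell in the limma fit, where 7 and 0 had an unadjusted p under 0.05, and the class median was 0.13. All 4 rises belonged to the 8 genes of the V1 sector, whose median difference was 0.20. Of the 4 measured V0 genes 0 passed, with a median of 0.09, and 2 of them had positive differences at an unadjusted p under 0.05. Over all 22180 genes, 3129 positive and 3125 negative differences had such an unadjusted limma p. Counts of this kind are read beside these, but no such count was made for the bright genes alone. Calls after adjustment were commoner among bright genes, at 27.4% against 14.3% of all genes. Whether the sectors differ was not tested.

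Atp6v1c1 encodes subunit C, which bridges V1 and V0 when the pump assembles. Its signals were 11.05, 11.10 and 11.10 in vehicle replicates 1 to 3 and 11.53, 11.45 and 11.48 in the purmorphamine replicates. The groups stood well apart, and the gene rose by 0.40 (SE 0.05, n = 3 per group, limma adjusted p = 0.0030), a 1.32-fold change. Atp6v1g1, for subunit G of the peripheral stalks that hold the pump's head in place, lay at 10.24, 10.27 and 10.23 in vehicle and at 10.54, 10.53 and 10.50 with purmorphamine. All treated arrays were above all vehicle arrays, and the rise was 0.28 (SE 0.05, adjusted p = 0.010). The other 2 probe sets named for Atp6v1g1 were dimmer, at vehicle means of 7.31 and 6.52, and differed by 0.40 and 0.30.

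Atp6v1a encodes the catalytic subunit A, which hydrolyses ATP. Its signals were 11.59, 11.56 and 11.68 in vehicle and 11.88, 11.78 and 11.84 with purmorphamine, a rise of 0.22 (SE 0.06, adjusted p = 0.045). Atp6v1d, for subunit D of the rotor shaft, lay at 10.71, 10.65 and 10.61 in vehicle and 10.96, 10.82 and 10.87 with purmorphamine, also a rise of 0.22 (SE 0.06, adjusted p = 0.049). In neither gene did the groups overlap, but vehicle replicate 3 of Atp6v1a and vehicle replicate 1 of Atp6v1d came nearest to the treated arrays. Both calls were lost with any 1 of the 6 arrays left out, with adjusted p from 0.056 to 0.140 for Atp6v1a and 0.062 to 0.147 for Atp6v1d. They were also lost after each array was centred on its median and with the replicate number as a block, which leaves 2 proton pump genes called.

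The remaining V1 genes gave differences of 0.18 for the stalk subunit gene Atp6v1e1 (adjusted p = 0.069), 0.12 for the regulatory subunit gene Atp6v1h, 0.09 for the ATP-binding subunit gene Atp6v1b2 and -0.06 for the dim Atp6v1f. Among V0 genes, Atp6v0d1, whose product couples the rotor to the proton-carrying ring, differed by 0.15 (adjusted p = 0.082), and the ring subunit gene Atp6v0b also by 0.15 (adjusted p = 0.11). In both, the 3 purmorphamine arrays lay above the 3 vehicle arrays. Atp6v0a1, for the membrane subunit that forms the proton path, differed by -0.09 and Atp6v0e by 0.03. The accessory genes Atp6ap1 and Atp6ap2 differed by -0.02 and 0.11.

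**Figure D2:**
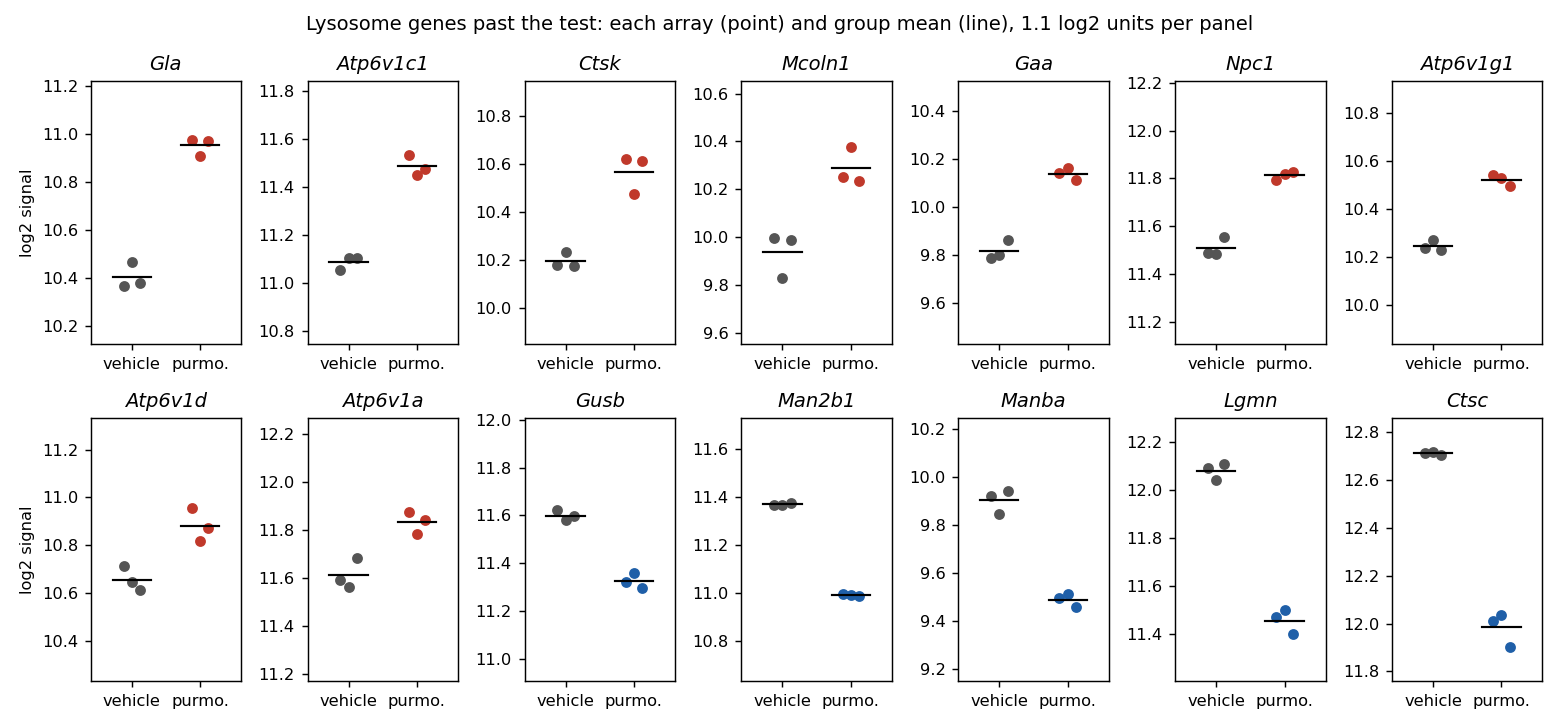
Log2 signal (vertical axis) of the 14 lysosome genes past the test on each of the 3 vehicle and 3 purmorphamine arrays, with a line for the group mean. Each panel spans the same range of log2 units, and within every panel the groups are separate, with the widest gap for Ctsc.

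The protease class was the one with the largest changes, and these ran in both directions: of 10 genes 1 rose and 2 fell, with a median difference of 0.03. Ctsc encodes dipeptidyl peptidase I, which activates the serine proteases of leukocyte granules. Its signals were 12.71, 12.72 and 12.71 in vehicle and 12.01, 12.04 and 11.90 with purmorphamine. The vehicle arrays were nearly equal and every treated array was lower, and Ctsc fell by 0.73 (SE 0.06, limma adjusted p = 4.75e-04), 1.66-fold lower. Lgmn, the asparaginyl endopeptidase legumain, which processes antigens and matures other cathepsins, lay at 12.09, 12.04 and 12.11 in vehicle and 11.47, 11.50 and 11.40 with purmorphamine. It fell by 0.63 (SE 0.05, adjusted p = 6.89e-04), 1.54-fold lower.

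Ctsk encodes cathepsin K, the collagen-degrading protease best known from osteoclasts and also made by lung fibroblasts. Its signals were 10.18, 10.23 and 10.18 in vehicle and 10.62, 10.47 and 10.61 with purmorphamine. Purmorphamine replicate 2 was the lowest of the treated arrays and still above all vehicle arrays, and the gene rose by 0.37 (SE 0.06, adjusted p = 0.0078).

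Of the 7 other proteases none passed, and their differences ran from -0.11 to 0.08. Ctss, which trims the invariant chain of MHC class II in antigen-presenting cells, gave that lowest value (95% interval -0.25 to 0.02), with vehicle signals of 13.30, 13.21 and 13.20 and purmorphamine signals of 13.18, 13.10 and 13.10. Ctsl, a broad cysteine protease, gave the highest. The abundant Ctsb and the aspartic protease gene Ctsd had vehicle means of 13.999 and 13.994 and differed by 0.01 (-0.10 to 0.12) and 0.04 (-0.08 to 0.15). These signals lie close to the brightest values of the arrays, which ran from 14.23 to 14.38. Ctsa, a carboxypeptidase that stabilises the sialidase Neu1, differed by 0.07, Ctsz by 0.08 and Ctsh by -0.01.

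Markers of the cell types moved beside these genes. Of 14 macrophage markers 5 fell and 1 rose. The Fc receptor gene Fcgr1 fell by 1.79, Itgam fell by 1.46, Csf1r fell by 0.63, Mrc1 fell by 0.62 and Adgre1 fell by 0.38. Itgax rose by 0.31, and Marco (0.20), Cd14 (0.19), Cd68 (0.13), Ptprc (0.07) and Lyz2 (0.05) had positive differences that did not pass. Fcer1g (-0.17), Mertk (-0.02) and Tyrobp (-0.02) had negative differences that did not pass. The mean over the 14 markers was 11.83 to 11.85 in vehicle and 11.51 to 11.57 with purmorphamine, but the median difference was -0.02, with 6 positive and 8 negative, and Fcgr1 and Itgam had the largest falls. Of 14 fibroblast markers 9 rose, Pdgfra by 0.83 at the most, and 1 fell, Thy1, with means over the list of 10.39 to 10.46 and 10.67 to 10.71. Of 6 endothelial markers 4 rose and 0 fell, with a median difference of 0.32: Vwf rose by 0.50, Tie1 by 0.36, Cdh5 by 0.34 and Pecam1 by 0.30, and the list means were 8.31 to 8.33 and 8.59 to 8.65. Of 8 epithelial markers 1 rose, Epcam by 0.50 (limma adjusted p = 0.0029), and 0 fell, with a median difference of -0.03. The part of all these markers in the falls of Ctsc and Lgmn and in the rise of Ctsk was not tested.

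Among the 13 glycosidases, lipases and related hydrolases, 2 rose and 3 fell, with a median difference of -0.04. These calls are 38.5% of the class, against 30% of the proteases, 28.6% of the pump genes and 22.2% of the membrane genes. The share was 27.4% among bright genes and 14.3% among all genes, and whether the classes differ was not tested. Gla encodes alpha-galactosidase A, which removes galactose from the glycolipid that accumulates in Fabry disease. It lay at 10.37, 10.47 and 10.38 in vehicle and 10.98, 10.91 and 10.97 with purmorphamine, the largest rise of the 46 genes at 0.55 (SE 0.05, limma adjusted p = 0.0012), 1.46-fold. Gaa, for the acid alpha-glucosidase that degrades glycogen and is missing in Pompe disease, lay at 9.79, 9.80 and 9.86 in vehicle and 10.14, 10.17 and 10.11 with purmorphamine. It rose by 0.32 (SE 0.05, adjusted p = 0.0066). The promoter stretches of both genes, shown above, hold CACGTG.

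The enzymes of the 3 glycosidase genes that fell take apart the sugar chains of glycoproteins and proteoglycans. Manba, for beta-mannosidase, lay at 9.92, 9.85 and 9.94 in vehicle and 9.50, 9.51 and 9.46 with purmorphamine, and fell by 0.42 (SE 0.05, adjusted p = 0.0029). Man2b1, for lysosomal alpha-mannosidase, hardly varied within groups: it lay at 11.37, 11.37 and 11.38 in vehicle and at 10.99 on all 3 purmorphamine arrays. It fell by 0.38 (SE 0.05, adjusted p = 0.0026). Gusb, for beta-glucuronidase, which cuts glycosaminoglycans, lay at 11.62, 11.58 and 11.60 in vehicle and 11.32, 11.36 and 11.30 with purmorphamine. Its groups were also separate, and it fell by 0.27 (SE 0.05, adjusted p = 0.012). All 5 calls of this class were kept with each of the 6 arrays left out in turn.

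The other 8 genes of the class did not pass. Lipa, the lysosomal acid lipase that frees cholesterol from its esters, came nearest: its signals were 13.38, 13.39 and 13.39 in vehicle and 13.60, 13.53 and 13.56 with purmorphamine, a difference of 0.18 (95% interval 0.06 to 0.29, adjusted p = 0.055). This value depended on the normalization: after quantile normalization of the arrays it was 0.045 (adjusted p = 0.59), and over the other alternatives on all 6 arrays the lowest adjusted p was 2.94e-04, from the robust fit with a variance trend. Smpd1, the acid sphingomyelinase, gave the largest value, 0.24, with the widest spread of the 46 genes among vehicle replicates (SD 0.13), and its dimmer probe set differed by 0.17. The sialidase gene Neu1 differed by -0.13, and Ppt1, which removes fatty acids from proteins, by -0.17 (adjusted p = 0.10). Psap, the precursor of the saposins that present lipids to hydrolases, differed by 0.10, and by -0.02 after quantile normalization, so its direction depended on the normalization. With each of the 6 arrays left out it stayed positive, at 0.08 to 0.10. It was called in the robust limma fit with a variance trend (adjusted p = 0.011). Differences were 0.04 for the peptidase gene Tpp1, -0.04 for the acid ceramidase gene Asah1 and -0.07 for the hexosaminidase subunit gene Hexa.

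Of 9 measured membrane and associated proteins 2 rose and 0 fell, with 3 and 0 at an unadjusted p under 0.05, and the median difference was 0.05. Npc1 carries cholesterol out of the lysosome. Its signals were 11.49, 11.49 and 11.56 in vehicle and 11.79, 11.82 and 11.83 with purmorphamine, a rise of 0.30 (SE 0.05, limma adjusted p = 0.0084). Its second probe set was dim, at a vehicle mean of 5.28, and differed by -0.02. With the mean of both probe sets the call was lost (adjusted p = 0.13) and 1 membrane gene was called. Npc2, the luminal partner that hands cholesterol to Npc1, differed by -0.01 (95% interval -0.12 to 0.11).

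Mcoln1 encodes TRPML1, the channel that releases calcium from lysosomes. It lay at 10.00, 9.83 and 9.99 in vehicle and at 10.25, 10.38 and 10.24 with purmorphamine. Replicate 2 was the lowest vehicle array and the highest treated one, and the rise was 0.35 (SE 0.07, adjusted p = 0.018). Without vehicle replicate 2 or without purmorphamine replicate 2 it missed the test at adjusted p = 0.0521 and 0.0545, in that order, and with the replicate number as a block at 0.059, which leaves Npc1 as the 1 call of the class. Ctns, the exporter of cystine, differed by 0.27 (95% interval 0.08 to 0.46, adjusted p = 0.070), with 10.21, 10.14 and 10.30 in vehicle and 10.50, 10.60 and 10.35 with purmorphamine. The groups of Ctns were separate by a narrow margin, and it passed without purmorphamine replicate 3 (adjusted p = 0.046), which gives a class count of 3. The structural glycoprotein genes Lamp1 and Lamp2 differed by 0.03 and 0.11, the tetraspanin gene Cd63 by 0.05, Cln3 by -0.08 and Grn, for the luminal glycoprotein progranulin, by -0.10.

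**Figure D3:**
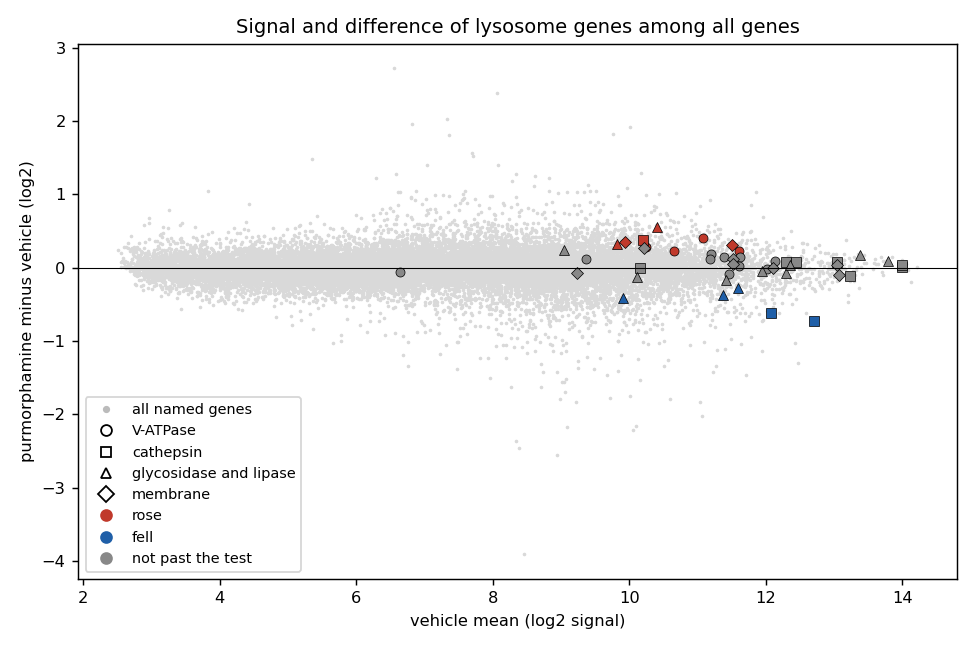
Difference of purmorphamine minus vehicle (vertical axis, log2 units) against the vehicle mean (horizontal axis, log2 signal), with 1 grey point per named gene and larger symbols for the 46 lysosome genes by class and outcome. All lysosome genes but Atp6v1f (6.64) lie in the bright part of the range, and none reaches a difference of 1 in either direction.

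Lysosome genes outside the 46 were taken from 4 further lists. Of 15 other pump subunits, isoforms and assembly factors measured, 1 rose and 0 fell, with 5 and 1 at an unadjusted p under 0.05. The riser was Atp6v0d2, the isoform of the V0 subunit d found in osteoclasts and macrophages, which lay at 12.50, 12.53 and 12.57 in vehicle and 12.87, 12.86 and 12.88 with purmorphamine. Its rise of 0.33 (SE 0.05, limma adjusted p = 0.0051) stood beside a difference of 0.15 for the widely expressed Atp6v0d1, and the difference between the isoforms was not tested. Tcirg1, the other subunit typical of osteoclasts, differed by -0.17 without passing. Of 9 other cathepsins and cystatins 0 were called by limma, with 2 positive differences at an unadjusted p under 0.05. Cstb, a cystatin that inhibits cysteine cathepsins, came nearest at 0.20 (adjusted p = 0.0502).

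Of 16 other hydrolases and activators measured 3 rose and 2 fell. Naglu, for an enzyme that degrades heparan sulfate, rose by 0.47 (SE 0.06, adjusted p = 0.0032), and Idua, for another enzyme of that pathway, by 0.25. Sgsh, for a sulfatase of the same pathway, fell by 0.28. Aga rose by 0.24, and Gm2a, the activator that presents the ganglioside to hexosaminidase, fell by 0.22. With 1 array left out, Idua was not called in any of 6 cases, and Aga, Gm2a and Sgsh missed the test in 5 cases each.

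Of 25 other lysosomal membrane proteins measured 6 rose and 2 fell, and the median difference was 0.13. Mcoln3, for the TRPML3 channel of the same family as Mcoln1, lay at 10.31, 10.29 and 10.35 in vehicle and 11.05, 11.13 and 11.05 with purmorphamine, and rose by 0.76 (SE 0.05, adjusted p = 3.22e-04). Mcoln2 rose by 0.19, so that all 3 mucolipin genes were called, but Mcoln2 missed the test in all 6 cases with 1 array left out, as did Laptm4b, which rose by 0.19. Slc11a1, a metal ion exporter of macrophage phagosomes, rose by 0.60, Clcn7, the chloride and proton exchanger of lysosomes, by 0.45, and Tmem106b by 0.39. Ostm1, the partner subunit of Clcn7, differed by -0.05. The lipid transporter gene Abca2 fell by 0.47 and Mfsd1 fell by 0.35. Scarb2 (the Limp2 of the list), a receptor that carries glucocerebrosidase to lysosomes, differed by 0.15 (95% interval 0.02 to 0.28, adjusted p = 0.13). In all, 14 of 65 genes of these 4 lists were called (21.5%), between the share of all genes and that of the bright ones.

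**Figure D4:**
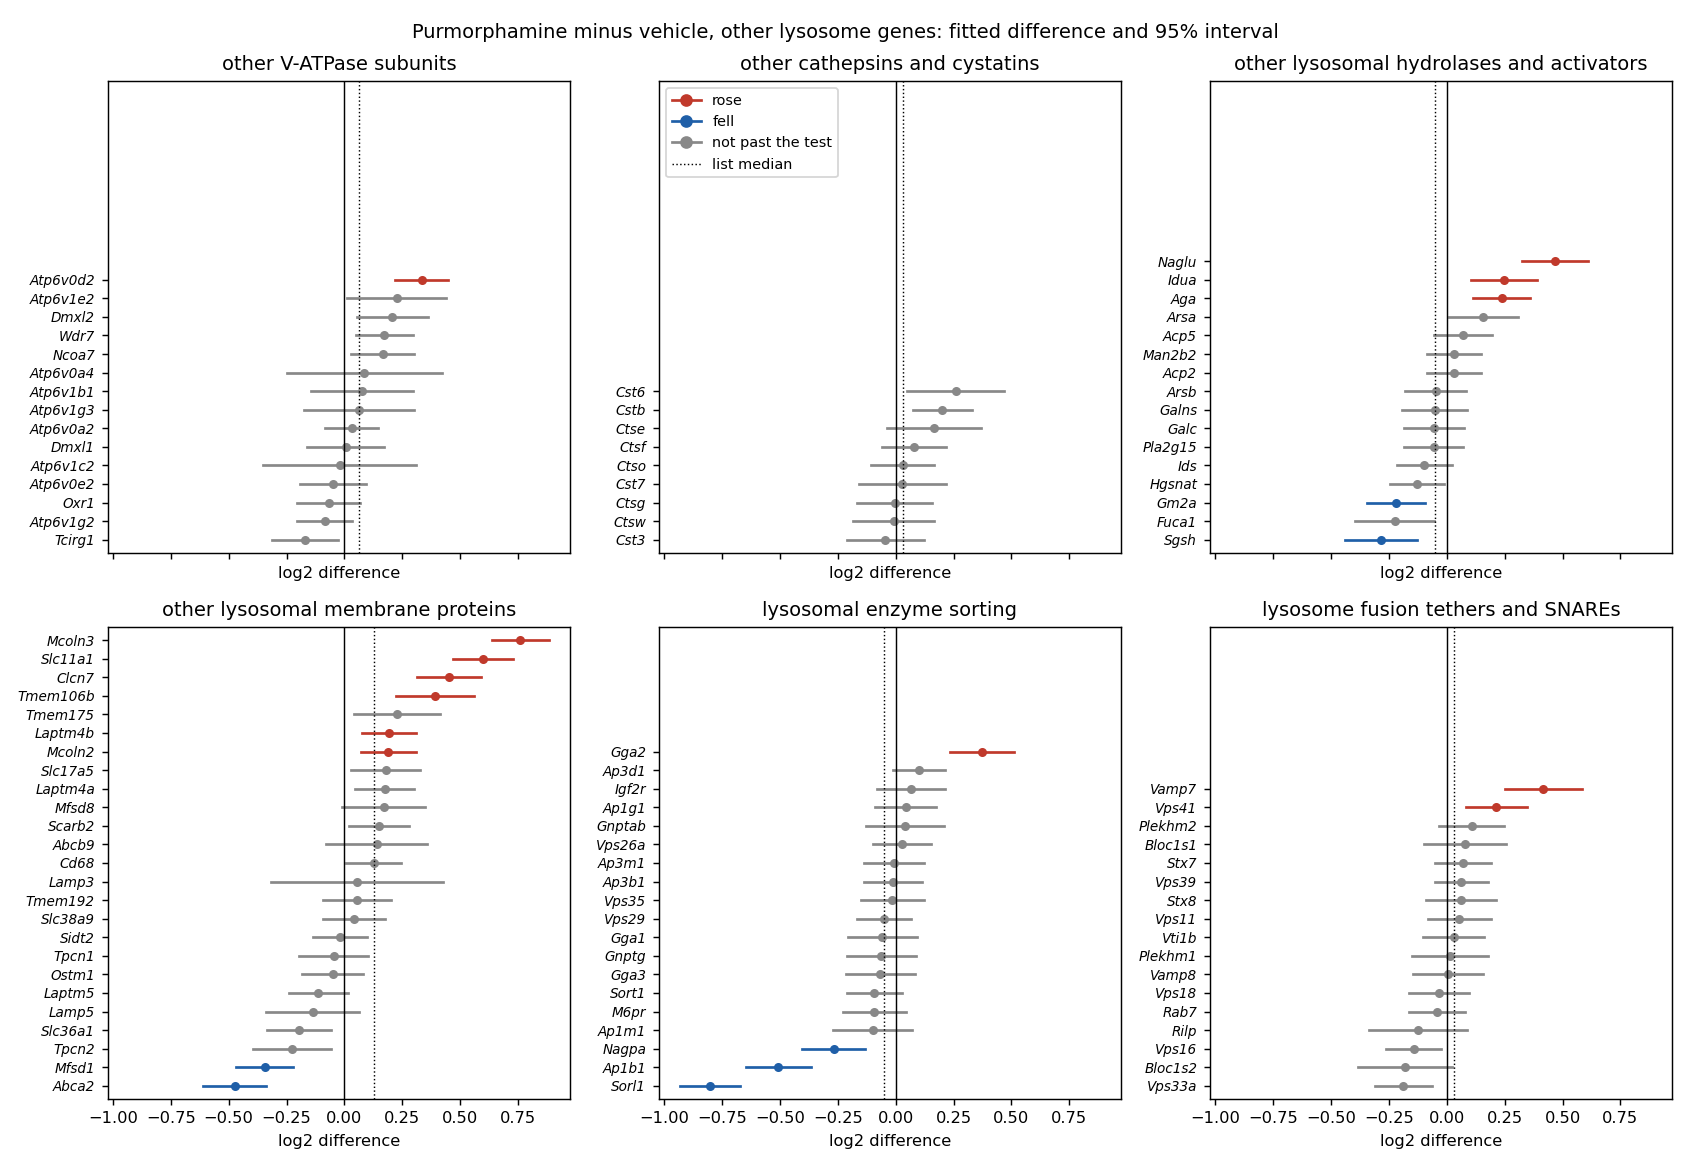
Fitted difference of purmorphamine minus vehicle (horizontal axis, log2 units) with its 95% interval for lysosome genes outside the 46, in 6 lists, with a dotted line for each list's median. Mcoln3 (0.76) has the largest rise and Sorl1 (-0.80) the largest fall.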

How the data were processed

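The authors' deposited values are log2 signals, 1 per probe set and array. The submitters' processing notes name oligo, RMA and limma, while versions and a genome build were not given there. RMA makes the arrays alike in distribution, which hides any shift shared by every gene, and dim genes show compressed changes. Precision is limited by the number of arrays.

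Probe sets were named from the platform annotation: of 41345, 23521 had 1 symbol, 1814 several and 16010 none. For each gene the brightest probe set, by its mean on 6 arrays, was kept, without a filter. Purmorphamine minus vehicle was fitted on all 22180 genes with lmFit and eBayes of limma 3.58.1 (R 4.3.3), two-sided, without a block. The steps were tested on simulated data, where 90% of 2-fold and 47% of 1.41-fold changes were recovered. Smaller changes were not simulated. The alternatives are median centring, quantile normalization, leaving out the dimmest genes, the mean of probe sets, every probe set, trend and robust, array weights, the replicate block, each array left out, an adjusted p under 0.1 and a 1.5-fold change. Members, lists, tests and alternatives were chosen with earlier results of these data known. Every listed gene is accounted for, genes past the test with all 6 values. The comparison with bright genes was added after their values were seen, as were the genes singled out from the further lists. Promoter windows are those of RefSeq on GRCm38.p6 and were read in Python 3.11.15.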

Additional observations from a re-analysis of the deposited data

How the results depend on the processing

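All 5 falls among the lysosome genes were kept under every alternative except a required 1.5-fold change, which left 2 falls (Ctsc and Lgmn) and 0 rises, with 0 calls among pump, glycosidase and lipase, and membrane genes and 525 over all genes (214 rising, 311 falling). No called difference changed its sign under any alternative. Quantile normalization turned the sign of 4 differences that had not passed, those of Psap, Ctsb, Atp6ap1 and Npc2. Leaving out 1 array also turned signs among genes that had not passed, those of Atp6v0e, Tpp1, Ctsh, Atp6ap1 and Npc2. Rises numbered 9 with quantile normalization and array weights, 8 with the mean of probe sets (1 membrane gene) and with every probe set, and 7 after median centring (2 pump genes). With a variance trend and robust fit they were 17, with 9 falls, 7 pump, 10 glycosidase and lipase and 5 membrane genes called and 2416 rises over all genes. Without the dimmest genes there were 15 rises and 6 falls, with 7 pump and 8 glycosidase and lipase genes, and fewer genes were adjusted over. An adjusted p under 0.1 gave 13 rises and 5 falls. Leaving out each array in turn, which lowers the number of samples, 6 to 8 lysosome genes rose and 5 fell, 2 pump and 1 to 3 membrane genes were called, and over all genes 1967 to 2374 were called, of which 897 to 1168 rose and 1057 to 1206 fell. The lowest count over all genes came without purmorphamine replicate 1. The causes of these moves were not tested.

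With the replicate number as a block, 6 lysosome genes rose and 5 fell, with 2 pump genes and 1 membrane gene called: Atp6v1a, Atp6v1d and Mcoln1 were lost. Deviations from the group means correlated at 0.11, 0.02 and 0.10 over all genes for arrays numbered 1, 2 and 3. Between arrays of unlike numbers the correlations ran from -0.09 to -0.01, so each array correlated best with the one of its own number. On the second principal component (an axis of variation over all genes, with 13.2% of the variance), replicate 3 lay at -13.55 in vehicle and -9.56 with purmorphamine. Replicates 1 and 2 of both groups lay between 3.06 and 6.88 on it. The main fit has no block, as the labels give 2 groups of 3 wells. The correlations are small, and whether the numbers pair the wells cannot be told from these values. Array signal limits Atp6v1f and the second Npc1 probe set, whose changes may be compressed.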

Other observations

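Of 19 genes that sort enzymes to the lysosome 1 rose and 3 fell by the limma fit (21.1%), a share between that of all genes (14.3%) and that of bright genes (27.4%). With the fusion genes given next it was 16.7% of 36, near the share of all genes. However, 30 of these 36 lay above the upper quartile on every array, and 16.7% is below the share of such bright genes. Sorl1, a sorting receptor between Golgi and endosomes, fell by 0.80 (SE 0.05, n = 3 per group, limma adjusted p = 3.09e-04), from 8.56, 8.48 and 8.57 in vehicle to 7.78, 7.70 and 7.71 with purmorphamine, and every treated array was lower. Ap1b1, for a subunit of the AP-1 clathrin adaptor, fell by 0.51 (SE 0.06, adjusted p = 0.0022), and Nagpa, the enzyme that uncovers the mannose 6-phosphate tag of lysosomal enzymes, fell by 0.27. Gga2, a Golgi adaptor that binds mannose 6-phosphate receptors, rose by 0.37, and the call was lost with the mean of its probe sets (adjusted p = 0.070). The receptors themselves, M6pr and Igf2r, differed by -0.09 and 0.07, Gnptab, which makes the tag, by 0.04 and the retromer subunit gene Vps35 by -0.01, and none of them passed. Nagpa kept its call in 2 of the 6 fits on 5 arrays.

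Of 17 genes for tethers and SNARE proteins of lysosome fusion 2 rose and 0 fell by limma, with 2 and 2 at an unadjusted p under 0.05. Vamp7, a SNARE of lysosome fusion and exocytosis, lay at 9.33, 9.17 and 9.16 in vehicle and 9.67, 9.55 and 9.68 with purmorphamine, and rose by 0.42 (SE 0.07, adjusted p = 0.0094). Vps41, a subunit of the HOPS tether, rose by 0.21 (adjusted p = 0.046), which was lost with any 1 of the 6 arrays left out. Rab7, the GTPase of late endosomes, differed by -0.04.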
